A study of Caenorhabditis elegans with 2 samples.

Results

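The chaperone genes of Caenorhabditis elegans were taken here as all protein-coding genes whose symbol begins with cct-, hsp-, dnj- or pfd- in the WBcel235 annotation. The rule gave 65 gene records of 19985 protein-coding genes, and the other 19920 genes served as the comparison. By prefix they were 8 chaperonin genes (cct-), 22 heat shock genes (hsp-), 29 J protein genes (dnj-) and 6 prefoldin genes (pfd-). The 65 records carry 63 symbols, because the annotation gives hsp-16.1 and hsp-16.48 to 2 records each. The second record of each pair is called hsp-16.11 and hsp-16.49 here, after the RefSeq gene symbol at the same coordinates. The study mapped UNC-30, a Pitx-type homeodomain protein needed for the identity of GABAergic D-type motor neurons, by chromatin immunoprecipitation and sequencing (ChIP-seq) in L1 larvae of mixed sex. Both libraries, biological replicates 1 and 2, came from strain OP395, which carries unc-119(tm4063) III and the integrated transgene wgIs395, the source of UNC-30 fused at the C terminus to GFP-FLAG. Whole larvae of this 1 transgenic line were used, the protein examined was the tagged one, and there was no second strain, stage or treatment. In chromatin of whole animals, binding in few cells and weak binding in many cells cannot be told apart.

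Chaperones bind proteins that are not yet folded or have lost their fold. The cytosolic chaperonin, built from the CCT subunits, closes around actin, tubulin and other clients, and prefoldin hands such clients to it. HSP70 proteins work in cycles driven by ATP, in which J proteins deliver clients and start hydrolysis, while HSP110 proteins exchange the nucleotide. HSP90 acts on proteins near their native state, small heat shock proteins hold unfolded proteins in solution, and HSP60 folds proteins in the mitochondrial matrix. Many of these genes are transcribed in unstressed growing animals, and some are induced by heat through heat shock factor, which binds inverted repeats of the unit GAA.

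The sequences under 5 of the strongest chaperone regions carry the short words discussed with the results, and are shown for that reason. Each covers 100 bp to either side of the summit of a pooled region, which is 201 bp of the plus strand of the ce11 (WBcel235) genome as RefSeq gives it. Capitals mark matches, on either strand, to GAANNTTC or TTCNNGAA (2 adjoining heat shock factor units, head to head or tail to tail) or to the words ATGCGC and CGCGCA. The windows are chrIII:1619034-1619234 at hsp-60, chrII:8185109-8185309 at cct-1, chrIV:1094269-1094469 at cct-8, chrII:4851713-4851913 at dnj-9 and chrIII:8447089-8447289 at hsp-110. None of the 5 windows holds TAATCC, the core word of homeodomains of the UNC-30 kind. The unbroken capital runs at hsp-60 and hsp-110 are 3 alternating heat shock units.
hsp-60: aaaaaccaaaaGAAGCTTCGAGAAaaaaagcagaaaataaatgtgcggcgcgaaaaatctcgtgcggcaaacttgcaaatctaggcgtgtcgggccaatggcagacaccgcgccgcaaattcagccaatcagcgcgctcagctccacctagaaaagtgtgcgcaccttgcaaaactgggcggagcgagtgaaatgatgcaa
cct-1: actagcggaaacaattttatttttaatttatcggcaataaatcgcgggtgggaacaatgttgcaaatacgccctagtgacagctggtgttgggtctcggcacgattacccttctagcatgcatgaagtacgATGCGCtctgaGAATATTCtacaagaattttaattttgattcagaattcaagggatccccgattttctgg
cct-8: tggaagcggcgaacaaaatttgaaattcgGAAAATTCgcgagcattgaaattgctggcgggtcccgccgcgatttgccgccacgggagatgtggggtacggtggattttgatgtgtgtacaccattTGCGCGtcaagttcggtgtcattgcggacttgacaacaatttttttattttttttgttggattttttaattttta
dnj-9: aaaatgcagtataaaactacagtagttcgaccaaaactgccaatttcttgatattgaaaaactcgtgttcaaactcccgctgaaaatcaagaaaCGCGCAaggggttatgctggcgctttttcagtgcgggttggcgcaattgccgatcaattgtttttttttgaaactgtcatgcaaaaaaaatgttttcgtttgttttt
hsp-110: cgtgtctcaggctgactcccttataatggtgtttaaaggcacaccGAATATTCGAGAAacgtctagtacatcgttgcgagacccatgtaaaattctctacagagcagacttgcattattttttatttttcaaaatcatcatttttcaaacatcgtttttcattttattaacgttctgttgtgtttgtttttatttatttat

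The deposited lists hold 30000 candidate regions for either replicate and as many for both pooled, and a short list of thresholded regions. The thresholded regions have the highest signal values of the pooled list, and are used here as the shallowest of 4 depths, followed by the 1000, 5000 and 30000 highest regions. The signal value is the authors' own measure of a region's height. Its scale is not given in the sources used here, so it is read within a list, and lists are compared by rank. Pooled signals ran from 113 down to 10.7 with a median of 14.2, and were 39.2 at the last thresholded region, 25.3 at rank 1000 and 18.9 at rank 5000. By the deposited q-values only 64 pooled regions were at or below 0.05, with 173 in the list of replicate 1 and 0 in that of replicate 2, so most ranks below come from regions that are individually uncertain. Read counts are not part of the lists and the depth of each library is unknown. Of 2 textbook targets of UNC-30, unc-25 had a promoter region at pooled rank 1707, rank 468 in replicate 1 and none in replicate 2, and unc-47 had none in any of the 3 lists.

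A gene was counted when the summit of a region lay in its promoter span, at most 2000 bp upstream or 500 bp downstream of the annotated 5′ end. Replicate values are those of the gene's best region in that list, which can lie elsewhere in the span than the pooled one. Chaperone genes held strong regions more often than other genes, and the ratio of the shares narrowed as weaker regions were added. Among the thresholded regions 5 chaperone genes had one (hsp-60, cct-1, cct-8, dnj-9 and dnj-13), which is 7.69% (95% Wilson interval 3.33 to 16.8), against 0.648% of the other genes and 0.671% of all protein-coding genes. Among the 1000 highest, 11 chaperone genes had one, 16.9% (9.72 to 27.8), against 3.93% of the others and 3.97% of all. The 5000 highest reached 19 chaperone genes, 29.2% (19.6 to 41.2), against 14.1% of the others and 14.1% of all genes. At 30000, where most genes were counted, 45 chaperone genes or 69.2% (57.2 to 79.1) had a region, against 56.2% of the others and 56.3% of all. The intervals cover counting error over genes only, and with 1 group of 2 libraries there is no test over samples.

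**Figure D1:**
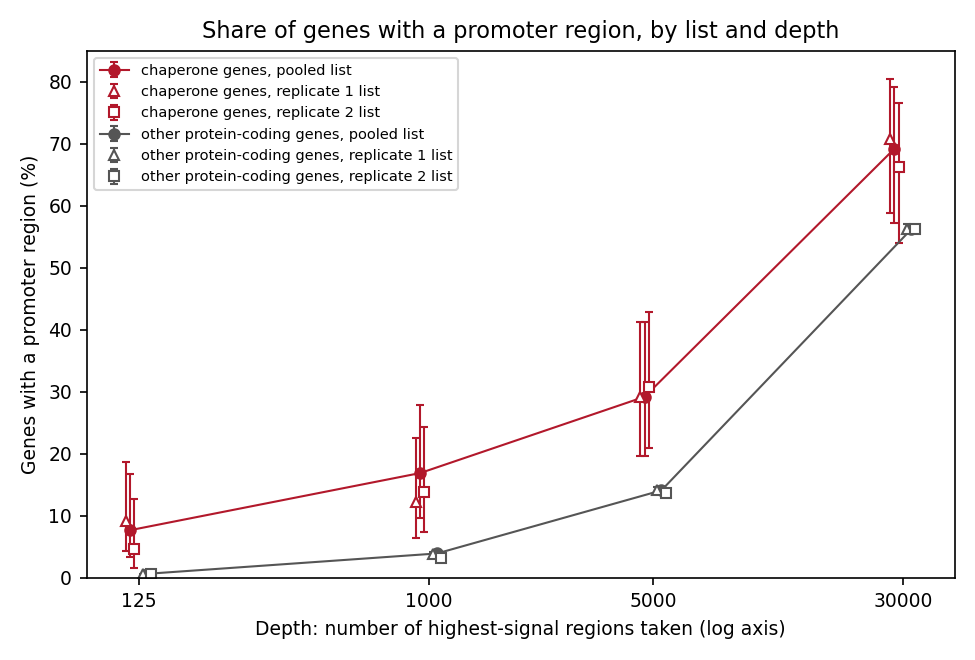
Share of genes (percent) with a promoter region against the number of highest-signal regions taken (log axis, starting at the number of thresholded regions), for the 65 chaperone genes in red and the 19920 other protein-coding genes in grey, with circles for the pooled list, triangles for replicate 1 and squares for replicate 2. Bars are 95% Wilson intervals, and the red symbols lie above the grey ones at each of the 4 depths in each of the 3 lists.

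The lists of the single replicates gave the same order of shares at each depth. In replicate 1, 6, 8, 19 and 46 chaperone genes had a promoter region at the 4 depths, from the shallowest to the deepest. These are 9.23%, 12.3%, 29.2% and 70.8% of the 65, against 0.57%, 3.84%, 14.3% and 56.3% of all genes. In replicate 2 the counts were 3, 9, 20 and 43, or 4.62%, 13.8%, 30.8% and 66.2%, against 0.56%, 3.28%, 13.8% and 56.3% of all genes. Only 2 chaperone genes, hsp-60 and cct-8, were within the shallowest depth in both replicates, and cct-1 joined them at a depth of 1000. The gene lists of the replicates thus overlapped in 3 of 8 genes of replicate 1 and 3 of 9 genes of replicate 2 at that depth. The same overlap was not counted over all genes, so it cannot be read as particular to chaperone genes.

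Signals were uneven among the chaperonin genes. The 8 cct genes encode the subunits alpha to theta of 1 complex. Among the 1000 highest pooled regions were 3 of them (cct-1, cct-8 and cct-5), 37.5% (95% Wilson interval 13.7 to 69.4), against 3.97% of all genes. Another 3 (cct-2, cct-3 and cct-4) had no pooled promoter region at all. The 5 with a pooled region at any rank are 62.5%, against 56.3% of all genes, so that lack was about as common as over all genes. cct-1, the alpha subunit, had a pooled signal of 65.7 (rank 30) with its summit 234 bp upstream of the 5′ end, a signal of 46.0 (rank 21) in replicate 1 and 16.9 (rank 721) in replicate 2. The 3 summits at cct-1 lay 232 to 236 bp upstream, so the position was repeated although the rank was far lower in replicate 2. cct-8, the theta subunit, had a pooled signal of 63.0 (rank 36) 449 bp upstream, 40.4 (rank 32) at the same distance in replicate 1, and 26.2 (rank 51) 312 bp upstream in replicate 2. The region of replicate 2 within 100 bp of the pooled cct-8 summit was weaker, with a signal of 14.2 at rank 2049.

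The remaining chaperonin subunits ranked lower in the pooled list. cct-5, the epsilon subunit, had a pooled signal of 32.0 (rank 290) 366 bp upstream, with 12.7 (rank 3584) in replicate 1 and 12.6 (rank 3841) in replicate 2, a region of middling rank in each library alone. cct-7, the eta subunit, had 13.0 (rank 19314) in the pooled list, 15.2 (rank 1482) in replicate 1 and 8.89 (rank 13976) in replicate 2. The replicate 2 region lay 803 bp upstream, against 248 bp in the pooled list. cct-6, the zeta subunit, had 12 (rank 23617) pooled, 7.50 (rank 20897) in replicate 1 and 11.1 (rank 6631) in replicate 2. Its summits lay at different places, 320, 854 and 1465 bp upstream in that order. Neither gene was among the 1000 highest regions of any list. cct-4 had a region in replicate 1 only (8.33, rank 16113), cct-3 in replicate 2 only (7.39, rank 22326), and cct-2 in no list.

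**Figure D2:**
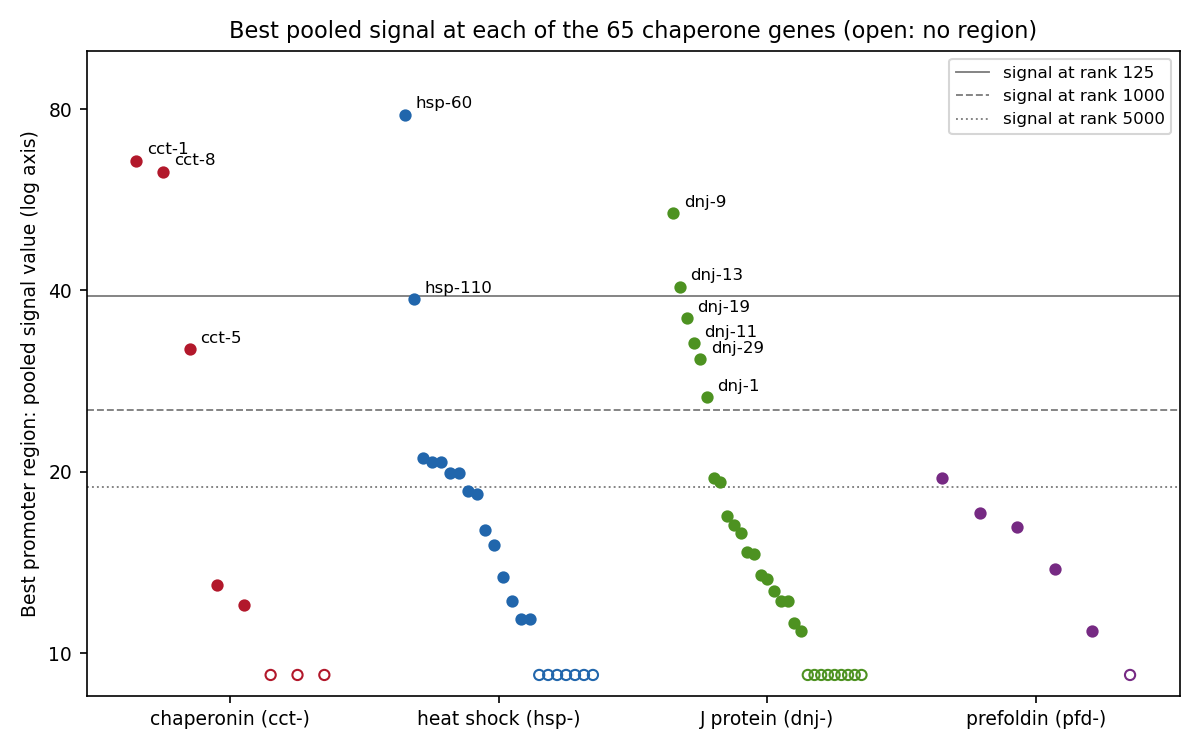
Pooled signal value (log axis) of the best promoter region of each of the 65 chaperone genes, by class, with open circles at the bottom for the 20 genes that had no pooled region and horizontal lines at the signals of the last thresholded region and of ranks 1000 and 5000. Named genes are the 11 among the 1000 highest regions, of which 5 lie above the line at 39.2, and no prefoldin gene lies above the line at 25.3.

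The highest chaperone region of all belonged to hsp-60, which encodes the mitochondrial chaperonin. Its pooled signal was 78.3 (rank 15, chrIII:1618956-1619311), with 42.0 (rank 30) in replicate 1 and 28.7 (rank 41) in replicate 2, and the 3 summits lay 606 to 618 bp upstream in intergenic sequence. The only other chaperone gene within the shallowest depth in all 3 lists was cct-8, with ranks of 36, 32 and 51. The list of replicate 2 also holds 10 mitochondrial regions, which are included in its ranks. The mitochondrial HSP70 gene hsp-6, whose product brings proteins into the matrix, differed between the lists. It had a signal of 19.3 (rank 295) 558 bp upstream in replicate 2 and 11.4 (rank 5706) 429 bp upstream in replicate 1, but no region in the pooled list, where the nearest summit lay 6232 bp away at rank 21633. The replicate summits at hsp-6 were 129 bp apart.

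Among the HSP70 family and its partners, hsp-110 stood out. It encodes the cytosolic HSP110, a nucleotide exchange factor, and had a pooled signal of 38.7 (rank 128), just below the thresholded regions, where the last chaperone gene was dnj-13 with 40.6 (rank 110). Its summit lay 280 bp upstream, and the signals were 26.5 (rank 123) in replicate 1 and 14.9 (rank 1573) in replicate 2. In the pooled list the remaining 5 members of the family lay far lower or had no region, although hsp-6 ranked above hsp-110 in replicate 2. hsp-4 and hsp-3, which encode the HSP70 proteins of the endoplasmic reticulum, had pooled signals of 18.6 (rank 5381, 26 bp upstream) and 18.4 (rank 5613, 1593 bp upstream), and hsp-4 had no region in replicate 2. hsp-1, the constitutive cytosolic HSP70, had 16 (rank 10067) in the pooled list, 6.96 (rank 24491) in replicate 1 and 13.5 (rank 2627) in replicate 2. These summits lay at different places, 1477, 350 and 221 bp upstream in that order. hsp-70, which is induced by heat, had no pooled region, and ranks of 27736 in replicate 1 and 18614 in replicate 2. hsp-90, the cytosolic HSP90, had a pooled signal of 21.1 (rank 2874) 426 bp upstream in a coding exon and 12.8 (rank 3510) in replicate 1, with none in replicate 2.

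None of the 13 small heat shock genes with the hsp- prefix was among the 1000 highest pooled regions, against 3.97% of all genes. That is a difference that 13 genes are too few to show. In the list of replicate 1 the count was also 0, against 3.84%. In replicate 2 it was 2 (15.4%; hsp-12.3 and hsp-12.6), against 3.28%. The small heat shock gene sip-1, which lacks the prefix, is counted with the other folding genes below. Among the 5000 highest pooled regions were 4 of the 13 (30.8%), through 2 shared regions, against 14.1% of all genes. hsp-16.1 and hsp-16.11, heat-inducible genes on chromosome V, shared a region with a pooled signal of 20.8 (rank 3080) and 13.6 (rank 2657) in replicate 1, with none in replicate 2. The summit of that region lay over 1000 bp upstream of both genes, between hsp-16.48 and hsp-16.49. hsp-16.48 had a pooled signal of 15.1 (rank 12471), and hsp-16.49, hsp-16.2 and hsp-16.41 had no pooled region. Some of these genes are near-identical copies: all 25-mers of hsp-16.48 occur in hsp-16.49 and all those of hsp-16.1 in hsp-16.11. The genes hsp-16.2 and hsp-16.41, and the sequences between genes where the summits lie, were not compared. How reads from such copies were placed is not given in the sources used here, so the values of the hsp-16 genes are uncertain. hsp-12.3 and hsp-12.6, small heat shock genes of chromosome IV, shared a region with a pooled signal of 19.9 (rank 3835) and 17.4 (rank 595) in replicate 2. Their best region in replicate 1 had 6.48 (rank 28075) at another place. It lay 97 bp downstream of the 5′ end of hsp-12.6, against 292 bp for the pooled one.

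J protein genes, which are 29 of the 65 members, supplied 6 of the 11 chaperone genes at a depth of 1000. This is 20.7% of J protein genes (95% Wilson interval 9.85 to 38.4), against 3.97% of all genes. In replicate 1 the count at that depth was 4 (13.8%, against 3.84% of all genes), and in replicate 2 it was 2 (6.9%, against 3.28%). dnj-9, a J domain gene, had a pooled signal of 53.8 (rank 50) and 33.4 (rank 60) in replicate 1, with the summit 243 bp upstream in both lists, and no promoter region in replicate 2. dnj-13, a cytosolic J protein of the class B kind, had a pooled signal of 40.6 (rank 110) 3 bp downstream of its 5′ end, 31.3 (rank 67) at the same base in replicate 1 and 11.2 (rank 6339) 188 bp upstream in replicate 2. Both were therefore high in replicate 1 and low or absent in replicate 2. Ranks were better in replicate 2 than in replicate 1 for dnj-19, a J protein of the class A kind, and for dnj-11, which RefSeq names a DnaJ homologue of subfamily C, member 2. dnj-19 had 36.0 (rank 168) in the pooled list, 15.6 (rank 1294) in replicate 1 and 26.2 (rank 53) in replicate 2. dnj-11 had 32.7 (rank 255) in the pooled list, 11.4 (rank 5831) in replicate 1 and 20.2 (rank 227) in replicate 2. The replicate 1 region lay 328 bp upstream, against 139 bp in the pooled list. Within 100 bp of the pooled dnj-11 summit, replicate 1 had a region at rank 10134. dnj-29 had 30.8 (rank 344) pooled, 13.4 (rank 2776) in replicate 1 and 14.3 (rank 1940) in replicate 2, middling in both. The replicate 2 region lay 913 bp upstream, against 258 bp in the pooled list. Within 100 bp of the pooled dnj-29 summit, replicate 2 had a region at rank 3570. dnj-1 had 26.6 (rank 752) at 1898 bp upstream, 23.6 (rank 194) in replicate 1 and only 6.91 (rank 25583), at another place, in replicate 2. The other 23 J protein genes comprised 2 among the 5000 highest, dnj-15 (19.5, rank 4321) and dnj-7 (19.2, rank 4597), 12 with weaker regions and 9 with no pooled region.

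Prefoldin genes had no strong pooled region. Of 6, none was among the 1000 highest, against 3.97% of all genes, 1 (16.7%) was among the 5000 highest, against 14.1%, and 5 (83.3%) were among the 30000, against 56.3%. With 6 genes, a count of 0 at a depth of 1000 does not set them apart from all genes. pfd-3 led with a pooled signal of 19.5 (rank 4268) 15 bp downstream of its 5′ end, followed by pfd-6 with 17.1 (rank 7768), pfd-5 with 16.2 (rank 9648), pfd-1 with 13.8 (rank 16252) and pfd-4 with 10.9 (rank 29121). pfd-2 had no region in any list. pfd-5 was the exception within a single library, with 18.8 (rank 361) 25 bp downstream of its 5′ end in replicate 2, against 11.0 (rank 6745) 1852 bp upstream in replicate 1. Subunits of 1 complex thus differed in rank in prefoldin as in the chaperonin.

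**Figure D3:**
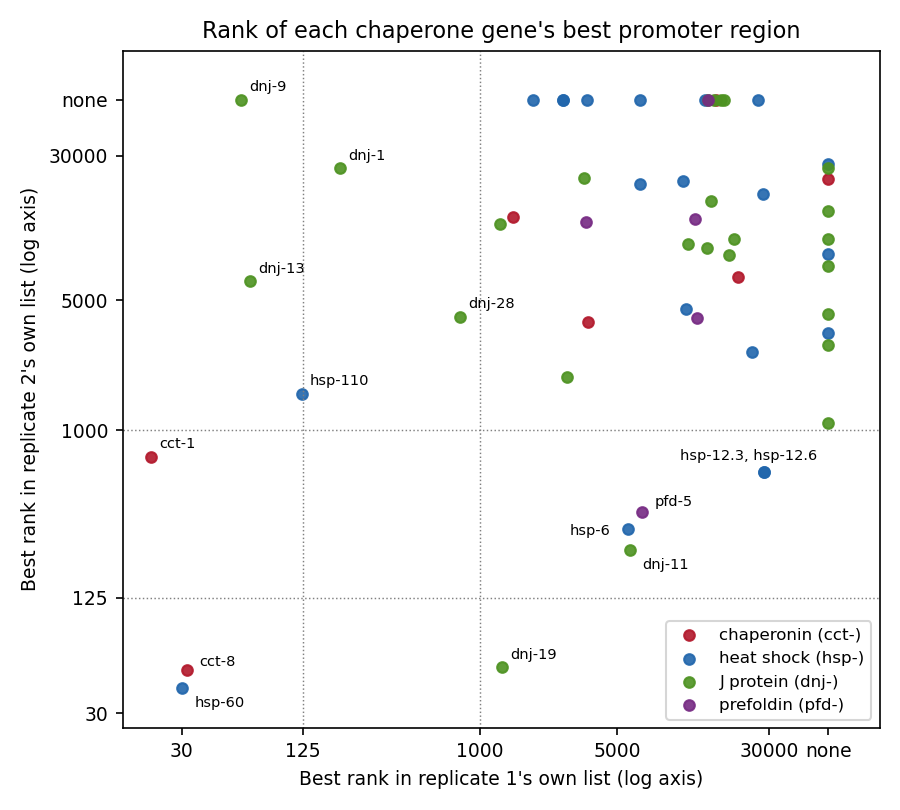
Rank of the best promoter region of each chaperone gene in the list of replicate 1 (horizontal) and of replicate 2 (vertical), both on log axes with low ranks meaning strong regions, and dotted lines at the shallowest depth and at rank 1000. Named genes rank within 1000 in either list, genes with no region in a list sit at "none", those with none in either are left out, and only hsp-60, cct-8 and cct-1 fall within rank 1000 on both axes.

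Counting by position instead of rank, most of the strong chaperone regions had a region close by in the lists of both replicates. The pooled list is made from the same 2 libraries, so such matches are partly built in. A match at any rank counted, such as rank 21250 in replicate 2 for dnj-13. Of the 11 chaperone genes at a depth of 1000, 9 (81.8%) had a summit within 100 bp of the pooled one somewhere in the lists of both replicates, against 69.1% of all genes at that depth. For the 5000 highest the shares were 9 of 19 chaperone genes (47.4%) against 48.1% of all genes, and at 30000 they were 11 of 45 (24.4%) against 19.1%. Among the thresholded regions they were 4 of 5 (80%) against 88.8%. Agreement on position was thus close to that of all genes at 5000, higher at 1000 and lower among the thresholded regions. The differences at 1000 and among the thresholded regions rest on 11 and 5 chaperone genes, too few to set them apart from all genes.

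Chaperone regions among the 1000 highest lay closer to the 5′ end than those of all genes, but 11 genes are too few to set them apart. The thresholded ones differed little from those of all genes. Among the thresholded regions the summit lay 1 to 500 bp upstream at 3 of 5 chaperone genes (60%), against 57.5% of all genes with such a region, and the median distance was 243 bp against 274 bp. Within the 1000 highest regions the summit lay 1 to 500 bp upstream at 7 of 11 chaperone genes (63.6%), against 42.6% of all genes with a region at that depth, and the medians were 280 bp against 448 bp. Of the 11 summits 8 were intergenic, and those of dnj-13, dnj-19 and dnj-1 fell in a UTR, an intron and a coding exon. At 30000, 19 of 45 chaperone genes (42.2%) had the summit 1 to 500 bp upstream, against 25.9% of all genes, with median distances of 437 bp and 658 bp. Between ranks 1001 and 5000 only 1 of 8 chaperone genes had it there and 5 had it over 1000 bp upstream, so the closeness was not found in every band of rank.

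**Figure D4:**
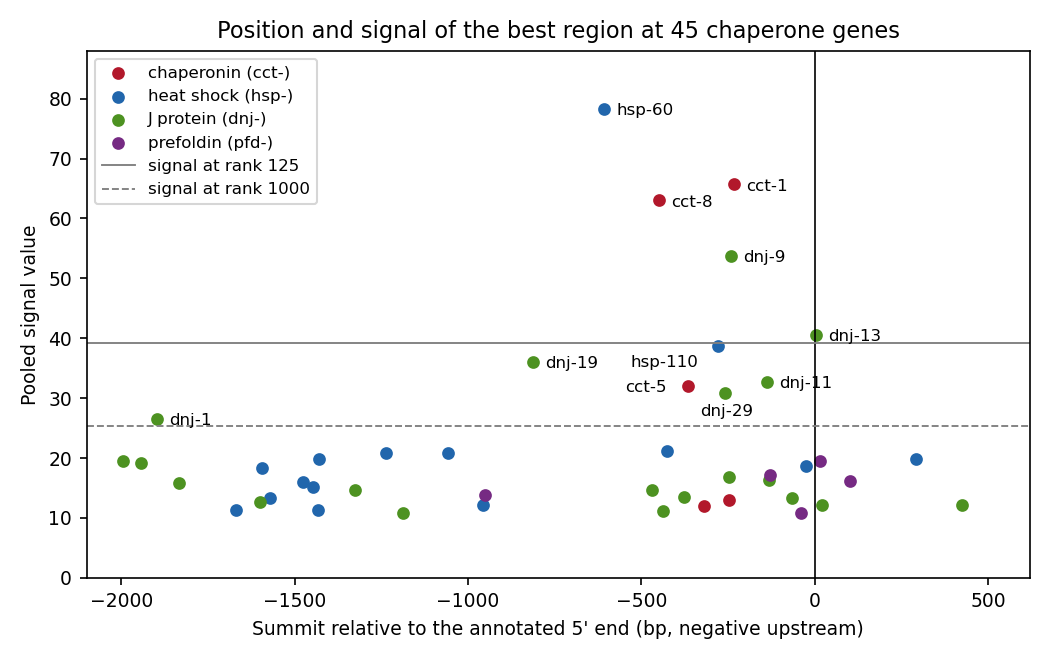
Pooled signal value of the best region of the 45 chaperone genes with one, against the distance of its summit from the annotated 5′ end (bp, negative upstream), coloured by class, with lines at the signals of the last thresholded region and of rank 1000. The signals above 30 lie between 814 bp upstream and 3 bp downstream of the 5′ end, and dnj-1 is the gene above the lower line at 1898 bp upstream.

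Most of the strong regions also fell in the promoter of a neighbouring gene, so they cannot be given to the chaperone gene alone. Among the 1000 highest this held for 10 of 11 chaperone genes (90.9%), against 59.3% of all genes with a region, and dnj-9 was the exception. Among the thresholded regions it held for 4 of 5 (80%), against 74.6% of all genes, a much smaller difference. The chaperone gene had the nearest 5′ end at 5 of the 11 (dnj-9, dnj-13, dnj-11, cct-5 and dnj-29). At hsp-60 the nearer gene was Y22D7AL.10, on the opposite strand with its 5′ end 813 bp from that of hsp-60 and the summit 205 bp upstream of it. RefSeq names its product as the mitochondrial 10 kDa heat shock protein, the lid of the HSP60 chamber, which the prefix rule does not count as a chaperone. At hsp-110 the nearer gene was rpn-3, a regulatory subunit of the proteasome, with the summit 164 bp upstream. At cct-1 it was mig-5, a Dishevelled homologue of Wnt signalling, 186 bp away, and at cct-8 it was Y55F3AR.2, a gene of a protein with a thioredoxin domain, 172 bp away. At dnj-19 the summit lay 418 bp downstream of the 5′ end of nhr-47, a nuclear hormone receptor gene. cct-5 shared its region with F25F2.1 (375 bp upstream of it), dnj-11 with F38A5.2 (332 bp), dnj-29 with ndua-2 (270 bp) and dnj-1 with mttu-1 (251 bp).

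The arrangement of the genes was looked at after these shared regions had been seen. A gene was called head-to-head when an opposite-strand protein-coding gene had its 5′ end within 1000 bp upstream. This held for 30 of 65 chaperone genes (46.2%), against 17.7% of all protein-coding genes, and by class for 6 of 8 chaperonin, 9 of 22 heat shock, 13 of 29 J protein and 2 of 6 prefoldin genes. At a depth of 1000, 10 of 30 head-to-head chaperone genes had a region, 33.3% (95% Wilson interval 19.2 to 51.2), against 6.7% (5.92 to 7.57) of other head-to-head genes. Of the chaperone genes without such a neighbour 1 of 35, dnj-9, had one, 2.86% (0.506 to 14.5), against 3.34% (3.08 to 3.63) of other genes without one. Since the split was chosen after seeing which regions were shared, it partly restates that sharing, and the second group rests on 1 gene. dnj-1 counts as head-to-head here, although the gene that shares its region, mttu-1, has its 5′ end 2149 bp away. With 5000 regions the shares were 40% against 18.3% for head-to-head genes and 20% against 13.2% for the rest, and at 30000 they were 80% against 57% and 60% against 56.1%. Among the thresholded regions they were 13.3% against 1.51% and 2.86% against 0.463%.

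**Figure D5:**
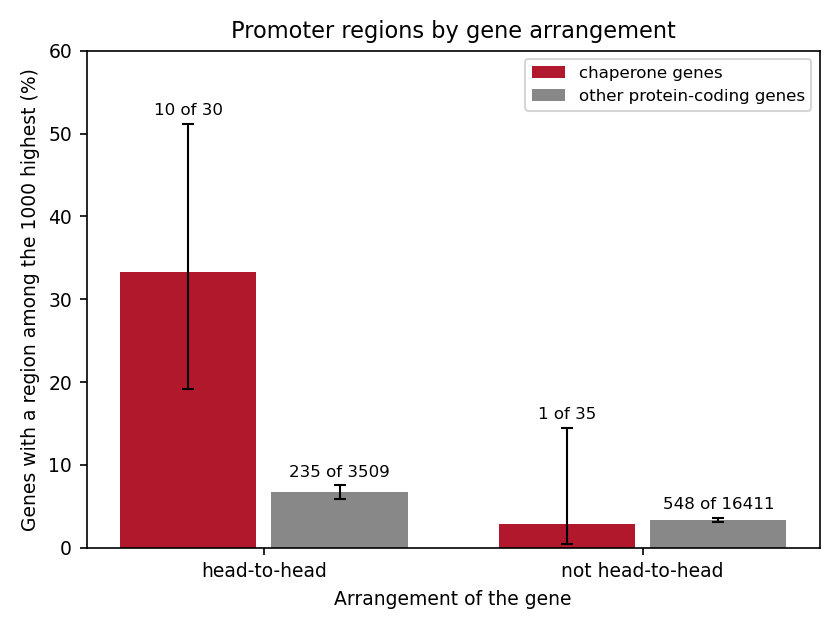
Share of genes (percent) with a promoter region among the 1000 highest pooled regions, for chaperone genes (red) and other protein-coding genes (grey), divided into head-to-head genes and the rest, with 95% Wilson intervals and counts above the bars. The head-to-head chaperone genes stand at 33.3% against 6.7% of their counterparts, while the remaining chaperone genes stand at 2.86% against 3.34%.

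The words printed in capitals in the sequences above were counted in the chaperone regions among the 1000 and the 5000 highest. Within 100 bp of the summit, TAATCC occurred in 0 of 11 chaperone regions at a depth of 1000, against 8.4% of the 536 promoter regions at that depth, and in 0 of 17 at a depth of 5000, against 7.56% of 2129. GAANNTTC occurred in 5 of the 11 (45.5%; hsp-60, cct-1, cct-8, hsp-110 and dnj-11), against 13.8% of all promoter regions. TTCNNGAA occurred in 3 (27.3%; hsp-60, hsp-110 and cct-5), against 12.3%. A run of 3 alternating units, in which these words overlap, occurred in 2 (18.2%), centred 83 bp from the summit at hsp-60 and 49 bp from it at hsp-110, against 1.68%. The word CGCGCA occurred in 3 (27.3%; dnj-9 with its centre 3.5 bp from the summit, cct-8 and cct-5), against 10.3%, and ATGCGC in 1 (9.09%; cct-1), against 10.1%. GACGCA and ACGCAG, 2 further words known from earlier results of these data, occurred in 0 of the 11, against 12.5% and 9.14%. These shares depended on the window and the depth. Within 50 bp of the summit GAANNTTC occurred in 1 of the 11 (9.09%), against 7.46% of all promoter regions, TTCNNGAA in 1 (9.09%), against 5.41%, and 3 alternating units in 0, against 0.187%. Among the 17 chaperone regions of the 5000 highest, within 100 bp, GAANNTTC occurred in 7 (41.2%), against 342 of 2129 promoter regions, and TTCNNGAA in 3 (17.6%), against 14.2%. The G+C content of the 11 windows had a median of 36.3%, against 34.8% for the 536 promoter regions.

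The same words were counted in the promoters of all 65 chaperone genes, with or without a region. In promoter sequence (250 bp before the 5′ end and 50 bp after it), 3 alternating units occurred in 11 of 65 chaperone promoters (16.9%), against 1.97% of all promoters. These were the promoters of hsp-70, hsp-1, hsp-90, hsp-110, dnj-12 and the 6 hsp-16 genes, and of these only hsp-110 had a region among the 1000 highest. The 6 hsp-16 genes lie in head-to-head pairs whose promoter sequences overlap, and some of them are near-identical copies. The same site can therefore count for both genes of a pair, so the 11 promoters are not 11 separate sequences. GAANNTTC occurred in 28 chaperone promoters (43.1%), against 18.5% of all, and TTCNNGAA in 22 (33.8%), against 18.9%. Both counts include the 6 hsp-16 genes. GACGCA occurred in 11 (16.9%), against 8.78%, and ACGCAG in 9 (13.8%), against 8.23%, and these counts too include the 6 hsp-16 genes. ATGCGC occurred in 6 (9.23%), against 5.81%. CGCGCA occurred in 5 (7.69%; cct-3, dnj-9, pfd-5, dnj-19 and hsp-3), against 6.08%. TAATCC occurred in 5 (7.69%; cct-2, pfd-1, dnj-4, dnj-14 and dnj-21), against 9.38%, and none of these 5 genes had a region among the 5000 highest of the pooled list. In replicate 2 dnj-4 (rank 2859) and pfd-1 (rank 4011) were within that depth. A match to a word is a description of the sequence and does not show binding.

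Other genes of protein folding and stress responses, taken from a list of 44 symbols of which 43 are in the annotation, were counted in the same way. The list also holds aha-1, a transcription factor gene of another kind, whose best region ranked 1334. At a depth of 1000, 5 of 43 (11.6%, 95% Wilson interval 5.07 to 24.5) had a promoter region, beside the 16.9% of chaperone genes and 3.97% of all genes. They were icd-2, a subunit of the nascent polypeptide-associated complex (52.2, rank 53), dve-1, a homeodomain regulator of the mitochondrial unfolded protein response (33.1, rank 242), sip-1, a small heat shock protein gene (26.7, rank 735), unc-45, a myosin chaperone gene (26.1, rank 838), and pek-1, a kinase of the endoplasmic reticulum stress response (26.1, rank 840). icd-2 held ranks 63 and 79 in the replicates. hsf-1, which encodes heat shock factor, had its best region at rank 13377. Proteasome genes had 15.2% (6.65 to 30.9; n = 33) at that depth and cytosolic ribosomal protein genes 34.6% (25 to 45.7; n = 78), the last above the share of chaperone genes. Among the thresholded regions the other folding (aha-1 included), proteasome and ribosomal protein genes had 2.33%, 3.03% and 8.97%, against 7.69% of chaperone genes. With 5000 regions these shares were 30.2%, 36.4% and 44.9%, against 29.2%, and at 30000 they were 72.1%, 75.8% and 70.5%, against 69.2%. A share above that of all genes was thus not particular to chaperone genes.

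No pooled promoter region was listed for 20 of the 65 chaperone genes, against 8736 of 19985 genes. Of these 20, 5 had none in any of the 3 lists (cct-2, pfd-2, dnj-10, dnj-14 and dnj-18), against 4246 of all genes, and the others had a region in 1 or both of the replicates' lists.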

How the data were processed

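Per the file lists deposited with the samples, the authors made a list of candidate regions for each of 2 replicates and for both pooled, and a thresholded list, found to be the 125 highest pooled regions. No source used here names the aligner, the caller, the control or the threshold. The signal value and the −log10 q-value of each region are the authors' own, as deposited. Regions of the ce11 lists were ranked by signal value and joined to 19985 protein-coding genes of Ensembl release 115 through their summits, at most 2000 bp upstream or 500 bp downstream of the 5′ end, and a region counted for each gene whose span held its summit. The ce10 lists were not used. Python 3.11.15, pandas 2.3.3 and SciPy 1.17.1 were used, and the counting was tested on simulated lists. Words were searched on both strands within 100 bp of the summit. Shares carry 95% Wilson intervals, and no test was made, since there is 1 group. Depth is unknown. The genes named are those among the 1000 highest regions, all cct and pfd genes, the main hsp genes and those that complete a small count. The members and lists were chosen with earlier results of these data known. Promoter spans, replicate lists, gene assignment, q-values and windows were varied.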

Additional observations from a re-analysis of the deposited data

How the results depend on the processing

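The share of chaperone genes with a promoter region lay above that of other genes in 33 of 34 alternative counts. Of 37 alternative values 23 stayed within 1.5 times the reported one. These counts re-use the same 2 libraries and genes, and several share the same regions, so they are not independent of each other. With each region given to the nearest 5′ end only, the counts at the 4 depths were 2, 5, 9 and 28 chaperone genes. The shares were 3.08%, 7.69%, 13.8% and 43.1%, against 0.366%, 2.55%, 10% and 43.9% of other genes. The last was the 1 count in which the chaperone share was not above. At a depth of 5000 the difference was much smaller than the 29.2% against 14.1% of the main count. Restricted to q-values of at most 0.05, 4 chaperone genes (6.15%, against 0.271% of other genes) were counted at depths of 1000, 5000 and 30000. With the span cut to 500 bp upstream and 100 bp downstream the counts were 11 at a depth of 5000 and 29 at 30000. These are 16.9% and 44.6%, against 5.07% and 21.3% of other genes. With regions matched in both replicates the counts at these depths were 9 and 12, or 13.8% and 18.5%, against 7.03% and 11.8%. At the shallowest depth, that of the thresholded regions, the count without replicate 1 was 3 (4.62%, against 0.547% of other genes). Without replicate 2 it was 6 (9.23%, against 0.542%). The nuclear regions of replicate 2 alone, an alternative added after seeing the data, gave 3 (4.62%, against 0.517%). Within 50 bp of the summit 5 of 17 chaperone regions at a depth of 5000 held any of the words searched, against 10 within 100 bp. The cause of these shifts was not tested, except that stricter rules admit fewer regions by construction. No paired analysis was possible because there is 1 group and no test. Without read counts the precision of each rank is unknown.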
